A study of Mus musculus with 8 samples.

Results

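The genes that receive the corticosteroid signal were examined in the dorsal dentate gyrus of wild-type and knockout mice for Cav3.1, a calcium channel of the T type. The set held 9 genes, for both corticosteroid receptors (Nr3c1 and Nr3c2), their chaperone partners (Fkbp5, Fkbp4 and Ptges3), an enzyme that regenerates the hormone (Hsd11b1) and the CRH system (Crh, Crhr1 and Crhr2). They were chosen by gene symbol in the platform annotation, and each was read by 1 probe, so 9 of the 23473 probes on the array were described. The samples were 4 arrays of wild-type mice (WT) and 4 of Cav3.1 KO mice, all male, 8 to 12 weeks old and of the C57BL/6J strain per the labels. The labels do not say how the Cav3.1 allele was made, in which cells it is lost, or whether every array held tissue of its own mouse. The p-values therefore reflect the variation among these 8 samples only, some of which may be technical.

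Corticosterone, the main glucocorticoid of the mouse, crosses into cells and binds a pair of nuclear receptors. The mineralocorticoid receptor, encoded by Nr3c2, binds it with high affinity, whereas the glucocorticoid receptor, encoded by Nr3c1, is filled mainly during stress and at the daily peak of the hormone. Both wait for hormone in a complex with heat shock protein 90 and co-chaperones, and both are known for their abundance in the hippocampus. CRH, the peptide that starts the hormonal stress response from the hypothalamus, is also made by hippocampal interneurons and acts through the receptors encoded by Crhr1 and Crhr2.

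None of the 9 genes passed the test between Cav3.1 KO and WT. Differences are Cav3.1 KO minus WT on the normalised log2 intensity scale. They ran from -0.13 for Hsd11b1 to 0.15 for Fkbp5, with a median of -0.04, beside a median of -0.00078 over all probes. The test was limma with Benjamini-Hochberg adjustment over the 21150 probes tested, at a threshold of 0.05, and 0.288% of all probes passed it. The adjusted p-values of the members lay between 0.559 and 0.993. Before adjustment 1 of the 9, Nr3c1, had a limma p under 0.05, beside 8.10% of all probes. By the exact permutation test over the 70 arrangements of the arrays 0 of 9 did. With this many arrays that test gives a p under 0.05 only where the groups do not overlap, so its count restates their overlap. The values of WT and Cav3.1 KO overlapped for all 9 members, while 4.95% of all probes separated the groups without overlap. In direction, 6 members were lower and 3 higher, and 50.7% of all probes were lower.

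**Figure D1:**
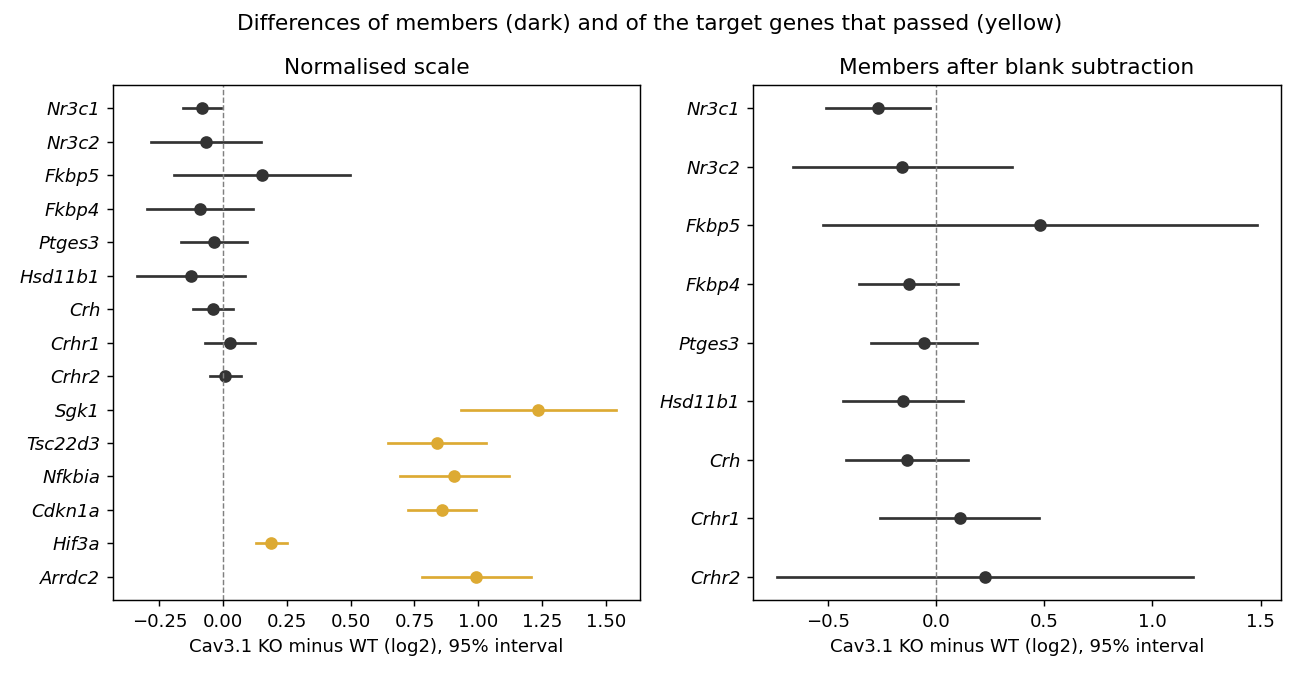
Difference between Cav3.1 KO and WT (log2, horizontal axis) with its 95% interval for the 9 members (dark) and, in the left panel, the 6 glucocorticoid target genes that passed the test (yellow). The left panel uses the normalised values and the right panel the values after subtraction of the blank spots, where the interval of Fkbp5 runs from -0.52 to 1.48.

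Signal strength differed widely among the members. Brightness is given as a multiple of the mean blank spot of the same array, which does not rank different genes. Fkbp4 (12.6 to 20.3 times the blank level), Hsd11b1 (7.11 to 10.7) and Ptges3 (3.0 to 4.36) were well above it. Nr3c1 (1.31 to 1.62), Nr3c2 (1.44 to 2.15), Fkbp5 (1.21 to 1.82), Crh (1.26 to 1.48) and Crhr1 (1.23 to 1.41) were dim but exceeded the 95th percentile of blank spots on all 8 arrays. Crhr2 (1.02 to 1.09) exceeded it on 6 arrays. The normalised scale includes an added constant and understates changes of dim probes. For the dim members other than Crhr2, differences after subtraction of the mean blank spot are therefore given beside the normalised ones.

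Over the whole arrays, 61 probes passed, 42 higher and 19 lower in Cav3.1 KO. Leaving out WT replicate 4, 3 or 1 lowered that count to 16, 26 or 37, respectively, and leaving out Cav3.1 KO replicate 2, 3 or 4 lowered it to 29, 33 or 34. The share of probes detected on an array ran from 85.4% to 93.0%. The array numbers formed a series from 44 to 51 and a later pair, 61 and 62, to which WT replicate 3 and replicate 4 of Cav3.1 KO belonged. The deviations of this pair from their group means correlated at 0.404 across probes. The probe of Cacna1g, the gene of Cav3.1, gave 6.54 in WT and 6.46 in Cav3.1 KO, a difference of -0.08 (adjusted p 0.816). Where it lies relative to the deleted part is not stated in the labels, so it does not check the genotype.

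Nr3c1, the glucocorticoid receptor, came nearest to a difference. Its normalised log2 values were 6.31, 6.36, 6.22 and 6.29 for WT replicates 1 to 4 and 6.20, 6.20, 6.25 and 6.19 for Cav3.1 KO replicates 1 to 4. WT replicates 1, 2 and 4 stood above every Cav3.1 KO array, and WT replicate 3 fell among them. The difference was -0.08 (SE 0.0326, 95% interval -0.158 to -0.00765), a fold of 0.944, and it did not pass (limma adjusted p 0.559, exact permutation p 0.0571). After subtraction of the blank level it was -0.27 (95% interval -0.509 to -0.0287), a fold of 0.83, with an adjusted p of 0.622. Without WT replicate 3 it was -0.11, with an unadjusted limma p of 0.0092 and an adjusted p of 0.494. Without WT replicate 2 it was -0.06, with an unadjusted limma p of 0.0849. Among the fits that left out 1 array, the unadjusted p was otherwise under 0.05 only without Cav3.1 KO replicate 3 (0.0334). It was 0.0703 with median scaling and 0.0868 with the replicate block. The difference was -0.10 within array numbers 44 to 51 and -0.03 between the later pair of arrays.

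Nr3c2, the mineralocorticoid receptor, varied more between arrays than between groups. The values were 6.36, 6.74, 6.42 and 6.46 in WT and 6.44, 6.31, 6.35 and 6.62 in Cav3.1 KO, in the order of the replicates. The high array was replicate 2 in WT and replicate 4 in Cav3.1 KO, with spot intensities of 115 and 106 against 82.2 to 95.4 on the other 6. The group means were 6.50 ± 0.166 and 6.43 ± 0.135 (SD, n = 4), a difference of -0.07 (SE 0.094, 95% interval -0.283 to 0.149, adjusted p 0.9748). The interval after subtraction of the blank level, -0.663 to 0.349, spans folds from 0.632 to 1.27. Without WT replicate 2 the sign turned, to 0.01.

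The balance of the receptors was described by the difference between Nr3c2 and Nr3c1 on each array. It was 0.20 ± 0.134 in WT and 0.22 ± 0.151 in Cav3.1 KO (SD, n = 4), on the normalised log2 scale. Since each probe has its own brightness, the size of this value has no meaning by itself, and only its change between groups does. That change was 0.02, within the spread of either group. It was 0.11 both after blank subtraction and in the deposited value table, and its sign turned when a single array was left out, to -0.03 for WT replicate 1 and -0.05 for Cav3.1 KO replicate 4.

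**Figure D2:**
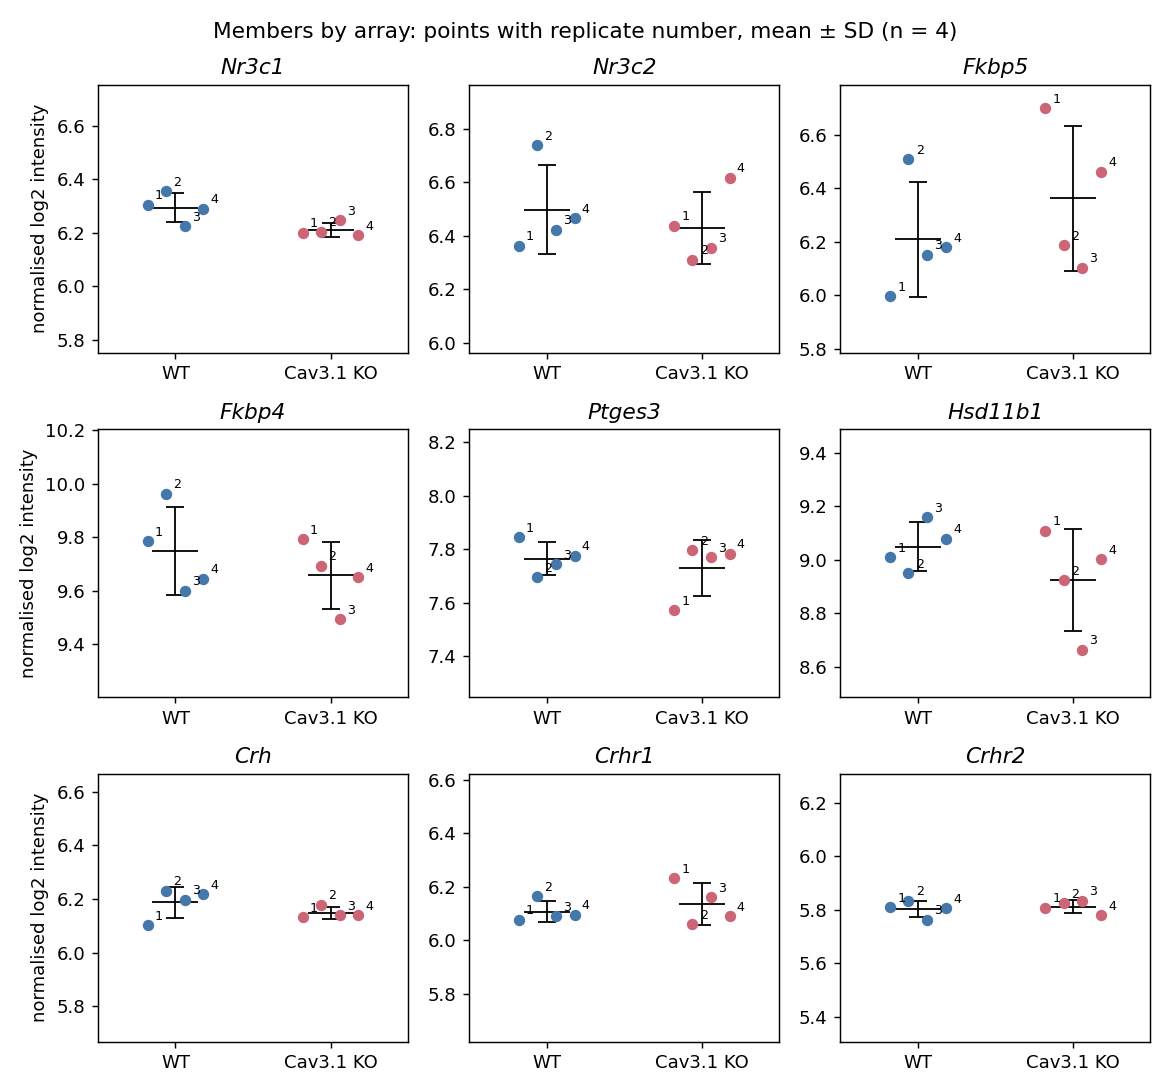
Normalised log2 intensity (vertical axis, each panel spanning the same range) of the 9 members on 4 WT and 4 Cav3.1 KO arrays. Points are arrays labelled with their replicate number, and bars are the mean ± SD. Every panel shows overlapping groups, and the widest spreads include those of Fkbp5, from 6.00 to 6.51 among WT arrays and 6.10 to 6.70 among Cav3.1 KO arrays.

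Fkbp5 encodes FKBP51, a co-chaperone that lowers the affinity of the receptor for hormone and is itself induced by glucocorticoids, which closes a short feedback loop. Its normalised log2 values were 6.00, 6.51, 6.15 and 6.18 in WT and 6.70, 6.19, 6.10 and 6.46 in Cav3.1 KO. WT replicate 2 and Cav3.1 KO replicates 1 and 4 were high, with spot intensities of 97.4, 98.4 and 96.2, and the remaining arrays lay between 63.9 and 84.4. The difference was 0.15 (SE 0.15, 95% interval -0.192 to 0.498, adjusted p 0.943, exact permutation p 0.429). The SDs of 0.215 and 0.271 were wide for a probe of this level. The spread within groups exceeded that of 99.1% of the 1000 tested probes nearest in mean value, against 94.5% for Nr3c2 and 24.8% for Nr3c1.

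The measurement of Fkbp5 did not limit its change to a small one. After blank subtraction the difference was 0.48, with a 95% interval from -0.52 to 1.48, that is, folds from 0.696 to 2.79. Of the 6 target genes that passed, 5 had folds inside this interval on that scale, 1.76 for Hif3a, 1.83 for Tsc22d3, 1.96 for Nfkbia, 2.47 for Arrdc2 and 2.59 for Sgk1, and Cdkn1a, at 4.68, lay outside it. The normalised difference was 0.04 when Cav3.1 KO replicate 1 was left out, and leaving out WT replicate 2 gave 0.25. Without Cav3.1 KO replicates 2 and 3, the arrays with the highest thalamus and habenula markers, it was 0.37 (unadjusted limma p 0.0426, adjusted p 0.541). These were also the lowest Cav3.1 KO arrays for Fkbp5, 6.19 and 6.10, so leaving them out had to raise the difference. WT replicates 1 and 2, with means of these markers of 6.81 and 6.79 against 6.38 on the other WT arrays, were kept. Cav3.1 KO replicate 1, the highest array for Fkbp5, had the highest mean of neocortex markers, 7.24, where the other arrays lay between 6.83 and 7.04. The part of tissue content in the spread of Fkbp5 was not tested.

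Fkbp4 encodes FKBP52, the related co-chaperone that favours hormone binding and carries the receptor toward the nucleus. It was bright, with values of 9.79, 9.96, 9.60 and 9.64 in WT and 9.79, 9.69, 9.49 and 9.65 in Cav3.1 KO. The highest array was WT replicate 2 and the lowest Cav3.1 KO replicate 3, and the rest intermingled. The difference was -0.09 (SE 0.0906, 95% interval -0.299 to 0.117, adjusted p 0.945), which spans folds from 0.813 to 1.08. Leaving out WT replicate 2 gave -0.02, leaving out Cav3.1 KO replicate 3 gave -0.04, and median scaling gave -0.16. Blank subtraction gave -0.13.

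Ptges3 encodes p23, which stabilises the hormone-binding state of the receptor complex. The values were 7.84, 7.69, 7.74 and 7.78 in WT and 7.57, 7.80, 7.77 and 7.78 in Cav3.1 KO. Cav3.1 KO replicate 1 stood below all other arrays, with a spot intensity of 169 against 202 to 239. The difference of -0.03 (SE 0.0567, 95% interval -0.165 to 0.0956, adjusted p 0.978) turned to 0.02 without that array.

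The values of Fkbp5 and Fkbp4 were also set against each other within arrays. Fkbp5 minus Fkbp4 changed by 0.24 between the groups, from -3.54 ± 0.166 in WT to -3.29 ± 0.187 in Cav3.1 KO (SD, n = 4). The ranges overlapped, at -3.79 to -3.45 and -3.51 to -3.09. The change was larger on both scales that do not compress dim probes, 0.61 after blank subtraction and 0.60 in the deposited value table, and no test was made of a value that combines members.

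Hsd11b1 encodes the enzyme that regenerates active corticosterone from its inert form inside cells. Its values were 9.01, 8.95, 9.16 and 9.08 in WT and 9.11, 8.92, 8.66 and 9.003 in Cav3.1 KO. Cav3.1 KO replicate 3 was the lowest array, as it was for Fkbp4. The difference was -0.13 (SE 0.0924, 95% interval -0.338 to 0.0874, adjusted p 0.882, exact permutation p 0.286). It was -0.04 without that array and 0.01 without Cav3.1 KO replicates 2 and 3. H6pd, which supplies the cofactor of this enzyme, differed by 0.03 (SE 0.0306, adjusted p 0.966), and Hsd11b2, the enzyme that inactivates corticosterone, was too dim to be tested.

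Of the CRH system, both measurable members were dim, and neither passed. Crh, the peptide, gave 6.10, 6.23, 6.20 and 6.22 in WT and 6.13, 6.18, 6.14 and 6.14 in Cav3.1 KO. The Cav3.1 KO arrays lay inside the WT range. The difference was -0.04 (SE 0.0337, 95% interval -0.118 to 0.0375, adjusted p 0.92), and -0.14 after blank subtraction, where the interval of -0.418 to 0.145 spans folds from 0.749 to 1.11.

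Crhr1, the receptor with high affinity for CRH, gave 6.08, 6.17, 6.09 and 6.09 in WT and 6.23, 6.06, 6.16 and 6.09 in Cav3.1 KO. Cav3.1 KO replicate 1 was the highest array and replicate 2 the lowest. The difference of 0.03 (SE 0.0426, 95% interval -0.0688 to 0.127, adjusted p 0.976) became -0.0031 without replicate 1. After blank subtraction the difference of Crhr1 was 0.11, and its 95% interval of -0.259 to 0.475 spans folds from 0.836 to 1.39.

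Crhr2, the receptor for which the urocortins have the higher affinity, was near the blank level, and no fold is read from it. On the WT arrays its spot intensities were 56.3, 58.7, 60.99 and 58.3, where blank spots averaged 52.99, 53.6, 59.7 and 55.4. On the Cav3.1 KO arrays they were 59.0, 67.6, 64.2 and 62.6, where blank spots averaged 56.2, 63.4, 59.8 and 60.8. The later pair of arrays, WT replicate 3 with Cav3.1 KO replicate 4, were those without detection. These arrays also had the lowest mean of choroid plexus markers in their groups, 7.64 and 6.55, where the other arrays lay between 8.28 and 9.28, and the lowest shares of detected probes. Crhr2 is known from the choroid plexus, and the part of this tissue or of the array pair in its signal was not tested.

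Genes around the members were read in lists fixed with earlier results of these data known. The lists other than that of glucocorticoid target genes held 0 genes that passed, beside 0.288% of all probes. At that share, lists this short would rarely hold a passing gene, so these counts do not show that the genes are level. Some intervals were wide, such as -0.60 to 0.46 for the chaperone gene Hspa8, an example chosen after its values were seen. Of 12 tested receptor chaperones and co-chaperones 0 passed, 6 were higher and 6 lower, with a median difference of -0.01. St13, an adaptor of the HSP70 and HSP90 chaperones, differed by -0.16 (SE 0.0454, adjusted p 0.317). Hsp90aa1, the stress-inducible HSP90, differed by 0.22 (SE 0.1, adjusted p 0.645). It was 13.88, 13.88 and 13.87 on Cav3.1 KO replicates 2 to 4, above the 13.47 to 13.77 of WT, but 13.51 on replicate 1.

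Among 10 tested nuclear receptor co-regulators 0 passed and 8 were lower, with a median of -0.04. Med1, the Mediator subunit that contacts hormone-bound receptors, was nearest the threshold. It was 8.17 ± 0.053 in WT and 7.98 ± 0.0256 in Cav3.1 KO (SD, n = 4), groups without overlap, and the difference of -0.19 (SE 0.0325) had an adjusted p of 0.082. Ncoa3, a steroid receptor coactivator, differed by -0.13 (SE 0.0547, adjusted p 0.596) at its brighter probe and by 0.05 (SE 0.0382, adjusted p 0.919) at the other, so its probes disagreed in sign.

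In the list of steroid supply, metabolism and transport 0 of 7 tested genes passed. The largest difference was that of Tspo, the mitochondrial translocator protein, at -0.15 (SE 0.0833, adjusted p 0.762). Abcb1a, the drug and steroid efflux pump of the blood-brain barrier, differed by -0.01 (adjusted p 0.996), as an example chosen after its values were seen.

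Of 11 tested genes of the CRH family and other stress peptides 0 passed, 6 were higher and 5 lower. Mc4r, a melanocortin receptor, was 6.49 ± 0.108 in WT and 6.75 ± 0.0968 in Cav3.1 KO (SD, n = 4), without overlap, a difference of 0.27 (SE 0.0656, adjusted p 0.235). Adcyap1, the gene of the peptide PACAP, differed by 0.30 (SE 0.0784, adjusted p 0.269). Crhbp, whose product binds and sequesters CRH, differed by -0.35 (SE 0.109, adjusted p 0.379). It was added to the named genes once its values were known, and gave 6.52, 7.02, 6.87 and 6.85 in WT and 6.42, 6.31, 6.51 and 6.63 in Cav3.1 KO.

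**Figure D3:**
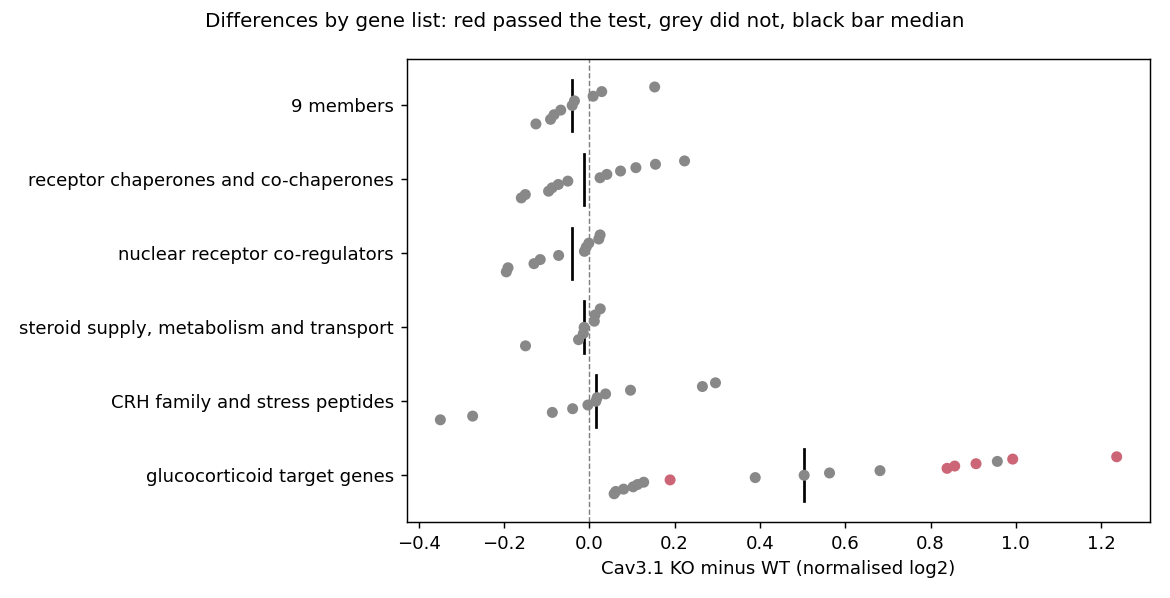
Difference between Cav3.1 KO and WT (normalised log2, horizontal axis) of each tested gene, by list. Red points passed the test, grey points did not, and black bars are medians. Only the list of glucocorticoid target genes holds red points, 6 of 17, and its median is 0.50, against -0.04 for the 9 members. That median is the value of Glul, with an SE of 0.525. Members and lists were chosen with earlier results of these data known, so the contrast is not independent evidence.

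The target side stood apart from these lists. Of 17 tested glucocorticoid target genes 6 rose and 0 fell, beside 0.288% of all probes that passed, and 11 separated the groups without overlap, beside 4.95%. The list was chosen with earlier results of these data known. Its direction, its counts and its contrast with the members and the other lists are not independent evidence. The genes that rose were Sgk1, Arrdc2, Nfkbia, Cdkn1a, Tsc22d3 and Hif3a, by 1.24, 0.99, 0.91, 0.86, 0.84 and 0.19 on the normalised scale. After blank subtraction, where Cdkn1a was the highest, these genes differed by 1.37, 1.30, 0.97, 2.23, 0.87 and 0.81 in the same order. They encode a kinase (Sgk1), an arrestin-domain protein (Arrdc2), the NF-kappa-B inhibitor (Nfkbia), a cell-cycle inhibitor (Cdkn1a), the GILZ protein (Tsc22d3) and a hypoxia-inducible factor subunit (Hif3a). Hif3a was the least stable of them. Its other probe, of nearly the same level, differed by 0.04 (SE 0.0331, adjusted p 0.897). At the probe used, Hif3a did not pass with array number as a block (adjusted p 0.0556), with median scaling (0.117) or in any of the 8 fits that left out 1 array, and it passed in 5 of 18 alternatives, whereas the other 5 passed in 13 to 16. The median gene of the list was Glul, glutamine synthetase, whose difference of 0.50 had an SE of 0.525 because its WT arrays varied with an SD of 1.21.

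At the probes used, all 17 tested genes of the list were higher in Cav3.1 KO, and 11 of them did not pass. Per1, the clock gene, differed by 0.10 (SE 0.0522, adjusted p 0.716), Klf9, a transcription factor, by 0.06 at its brighter probe (adjusted p 0.959) and -0.0017 at the other, and the metallothionein gene Mt1 by 0.11 (adjusted p 0.918). Dusp1, a phosphatase of MAP kinases, separated the groups, with WT arrays from 7.24 to 7.51 and Cav3.1 KO arrays from 7.84 to 8.69, but its difference of 0.96 (SE 0.197) had an adjusted p of 0.147. Errfi1, at 0.56 (SE 0.097, limma adjusted p 0.0848), and Mt2, at 0.39 (SE 0.102, limma adjusted p 0.267), also separated the groups without passing. These genes were named after their values were seen. Of the 6 that rose, 2 passed without WT replicate 4 (Cdkn1a and Arrdc2) and 2 without Cav3.1 KO replicates 2 and 3 (Tsc22d3 and Cdkn1a). Within array numbers 44 to 51, with 3 arrays a group, 0 of the 6 passed, and their differences there were at least 0.19.

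**Figure D4:**
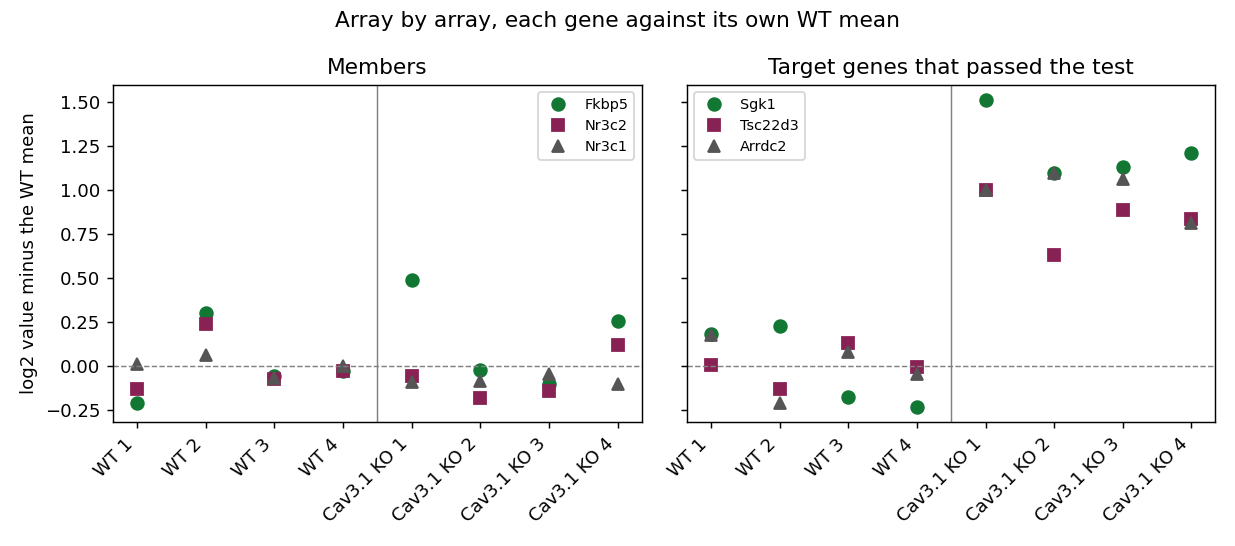
Value of each gene on each array minus its own WT mean (normalised log2, vertical axis), for Fkbp5, Nr3c2 and Nr3c1 (left) and for 3 target genes that passed (right). The target genes are above their WT mean on every Cav3.1 KO array, whereas Fkbp5 is above it on Cav3.1 KO replicates 1 and 4 and on WT replicate 2.

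For the targets that passed, array values are given as a description, since passing the test chose them. Sgk1 gave 8.54, 8.59, 8.18 and 8.13 in WT and 9.87, 9.45, 9.49 and 9.57 in Cav3.1 KO, and Tsc22d3 gave 9.21, 9.07, 9.33 and 9.20 against 10.21, 9.84, 10.09 and 10.04. Both were above the WT range on all 4 Cav3.1 KO arrays. Per1, a target that did not pass, gave 7.26, 7.14, 7.05 and 7.21 in Cav3.1 KO, where replicate 3 lay inside the WT range of 7.01 to 7.14, and Fkbp5 on Cav3.1 KO replicates 2, 3 and 4 lay within its WT range. Whether the change of Fkbp5 differs from that of the other targets was not tested.

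Promoter windows are shown for Fkbp5 and Sgk1, both known receptor targets, of which Sgk1 passed the test here and Fkbp5 did not. Whether their changes differ was not tested. Those of Nr3c2 and Fkbp4 are shown because they were the members with a match. RefSeq windows from 250 bases before to 50 bases after a gene's start, on GRCm38.p6, were found for 7 of the 9 members, and the 250 bases upstream are printed on the gene's strand. Searched on both strands were the receptor-binding hexamer AGAACA, the palindrome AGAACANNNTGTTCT that holds it in both orientations, the heat shock factor pair GAANNTTC and the cAMP response element TGACGTCA. Capitals mark all matches, and in the Sgk1 window the heat shock pair overlaps the palindrome.
Fkbp5, chr17:28486150-28486399, minus strand: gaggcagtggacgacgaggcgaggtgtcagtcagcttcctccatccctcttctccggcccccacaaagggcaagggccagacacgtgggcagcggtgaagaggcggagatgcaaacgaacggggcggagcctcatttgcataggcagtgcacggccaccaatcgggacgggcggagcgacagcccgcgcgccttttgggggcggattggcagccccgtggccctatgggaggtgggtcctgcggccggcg
Sgk1, chr10:21993640-21993889, plus strand: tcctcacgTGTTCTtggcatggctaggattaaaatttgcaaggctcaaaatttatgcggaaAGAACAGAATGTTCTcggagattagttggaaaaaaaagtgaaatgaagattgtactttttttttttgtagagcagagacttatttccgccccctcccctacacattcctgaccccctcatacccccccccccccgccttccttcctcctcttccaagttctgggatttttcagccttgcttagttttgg
Nr3c2, chr8:76902080-76902329, plus strand: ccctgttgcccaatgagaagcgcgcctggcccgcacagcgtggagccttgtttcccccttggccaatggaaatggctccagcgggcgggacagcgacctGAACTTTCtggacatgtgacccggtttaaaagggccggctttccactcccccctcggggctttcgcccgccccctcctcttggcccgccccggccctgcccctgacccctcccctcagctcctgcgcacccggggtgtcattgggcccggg
Fkbp4, chr6:128438657-128438906, minus strand: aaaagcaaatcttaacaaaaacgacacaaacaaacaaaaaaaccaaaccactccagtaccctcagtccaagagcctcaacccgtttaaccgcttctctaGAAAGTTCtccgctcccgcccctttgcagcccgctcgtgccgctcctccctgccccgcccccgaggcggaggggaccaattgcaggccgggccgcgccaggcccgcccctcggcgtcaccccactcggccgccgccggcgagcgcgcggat

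The hexamer occurred in 0 of the 7 member windows and in 19.0% of the 32851 windows in the table. Among the 6 target genes that rose, 2 had a window with the hexamer, Sgk1 and Tsc22d3, and 1 with the palindrome, while the windows of Nfkbia, Cdkn1a, Hif3a and Arrdc2 held neither. A gene was counted if any of its windows matched. Sgk1 had 6 windows and Tsc22d3 had 3, against 1 for each member with a window. The count of target genes is therefore not comparable with the share of windows or with the members. The full palindrome occurred in 3 of all windows (0.00913%), and the Sgk1 window shown, which is 1 of 6 listed for that gene, is among them. The heat shock pair was present in the windows of Nr3c2 and Fkbp4, beside 7.86% of all windows, and the cAMP response element in 0 of 7, beside 1.79%. No match says only that these letters are not in this window. The known receptor-binding sites of Fkbp5 lie in its introns, outside it.

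Tissue content was followed with marker lists. All 10 dentate granule neuron markers were detected on all 8 arrays, with list means from 7.08 to 7.18 among WT arrays and from 6.93 to 7.08 among Cav3.1 KO arrays. Since other brain lists were detected as fully, among them 5 of 5 CA1 markers and 4 of 4 neocortex markers on all arrays, detection does not set the dentate gyrus apart from neighbouring tissue. Means of GABAergic interneuron markers, the cells known to make CRH, ran from 8.70 to 8.88 among WT arrays and from 8.67 to 9.01 among Cav3.1 KO arrays, and all 8 were detected on every array. CA2 markers, from the field known for Nr3c2, ran from 6.61 to 6.70 and 6.65 to 6.86. Thalamus and habenula markers were 6.38 to 6.81 in WT, 7.15 on each of Cav3.1 KO replicates 2 and 3, and 6.47 and 6.43 on replicates 1 and 4. Choroid plexus markers ran from 7.64 to 9.28 and 6.55 to 9.20, endothelial markers from 7.92 to 8.07 and 7.79 to 7.94, and microglial markers from 7.96 to 8.16 and 7.92 to 8.05. In every list each marker on the array was detected on at least 1 array. In whole tissue, fewer cells of a type and less RNA per cell cannot be told apart, and the part of tissue content in the members' values was not tested.

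The genes that varied most like the receptors and Fkbp5 were found by Pearson correlation across the 8 arrays after removal of the group means, among 17524 probes of named genes. They were Aftph (r = 0.982), Ino80e (0.971) and Moxd1 (0.966) for Nr3c1. For Nr3c2 they were Vmn1r202 (0.993), Ntrk3 (0.988), the receptor of neurotrophin-3, and Rtn4r (0.982), the Nogo receptor. For Fkbp5 they were Rita1 (0.997), Rbbp5 (0.995) and G6pc (0.99). With 8 arrays and this many probes such values are the extremes of a wide search, and they are given as a description only. None of the 9 passed the test between the groups, with limma adjusted p-values between 0.28 and 0.998.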

How the data were processed

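Total RNA was amplified, labelled with Cy5 and hybridised to single-colour TORAY chips, per the labels' protocols. The deposited scanner files give a median spot intensity at 635 nm that is not normalised, per the file headers, with flags at 3 gains; the labels do not state how the gains were merged. The deposited value table, a linear intensity with a median of 25 on each array whose normalisation is unstated, served as an alternative.

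No local background could be used, because the background column followed its own spot (correlation of logarithms 0.994 to 0.996). Normexp with an offset of 50 was therefore fitted to the spot intensities alone, followed by log2 and quantile normalisation. Probes above the 95th percentile of the 2736 blank spots on at least 4 of 8 arrays, with no bad flag, were tested: 21150, after 2239 dim and 84 flagged probes were left out. All 9 members passed this filter. The group difference was tested with limma 3.58.1 (lmFit, eBayes) under R 4.3.3, without covariates, and p-values were adjusted by Benjamini-Hochberg across the tested probes. Permutation tests were exact and two-sided, and the smallest p they can give is 0.0286. The code was tested on simulated data. The number of arrays limits the precision.

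Named were all members, the genes of each list that passed or else its 2 with the smallest p, and the 3 most alike for Nr3c1, Nr3c2 and Fkbp5; further names are marked as picked once their values were known. The members and lists were chosen with earlier results of these data known. Where a gene had several probes (4 listed genes, no member), the brightest was used. Symbols come from the platform annotation, under which 11 listed genes had no probe and were not analysed here. Alternatives were blank subtraction (scaled to a median of 25, floor of 1), an offset of 16, median scaling, the value table, other dim-probe filters, array number or replicate number as a block, and leaving out arrays. No pairing by replicate number was seen in the values: deviations of same-numbered arrays correlated between -0.115 and 0.0109. That cannot exclude a pairing in the design.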

Additional observations from a re-analysis of the deposited data

Results flagged for a closer look

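Of 18 groups of 4 arrays, 9 members in WT and in Cav3.1 KO, 2 held an array far from the other 3, where chance flags about 1 group in 20. Ptges3 in Cav3.1 KO replicate 1 was 7.57, with the nearest array at 7.77. Crh in Cav3.1 KO replicate 2 was 6.18, with the nearest array at 6.14. That gap is large only against the narrow range of its own group, and the value lay inside the WT range of 6.10 to 6.23. The causes were not tested.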

How the results depend on the processing

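No member passed the test under any of the alternatives run. Of 160 member values under them, 153 kept their sign and 7 turned it, all small. Without Cav3.1 KO replicates 2 and 3, Nr3c2 differed by 0.0302, Hsd11b1 by 0.0056 and Crhr2 by -0.0089. Leaving out each array in turn, the differences ran from -0.129 to 0.0132 for Nr3c2, -0.0047 to 0.0195 for Crhr2, -0.058 to 0.0181 for Ptges3 and -0.0031 to 0.0545 for Crhr1. The lowest adjusted p of any member was 0.447, for Nr3c1 with array number as a block. The count over all probes was 36 with median scaling, 34 in the deposited value table, 7 within array numbers 44 to 51, 8 with the replicate block, 17 without Cav3.1 KO replicates 2 and 3, and 16 to 49 with each array left out, against 61. The number of glucocorticoid target genes that passed was 2 to 6 with each array left out, and, in alternatives chosen after seeing the data, 2 without Cav3.1 KO replicates 2 and 3, 0 within array numbers 44 to 51 and 1 with the replicate block, against 6. The other lists had 0 under all of these. No WT array correlated best with the Cav3.1 KO array of its own number. These values show no pairing by replicate number but cannot exclude one in the design. Fkbp5 minus Fkbp4 changed by 0.61 after blank subtraction and 0.60 in the value table, and Crhr1 minus Crhr2 by -0.12 after blank subtraction, against 0.24 and 0.02; the cause was not tested. Each member had 1 probe, so the alternative with another probe was not run for them, and Crhr2 had no value on 2 arrays of the value table. For members near the blank level, Nr3c1, Nr3c2, Fkbp5, Crh and both CRH receptors, the added constant compresses the normalised differences.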
